A study of Mus musculus with 2 samples.

Results

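The 10 core circadian clock genes *Arntl*, *Clock*, *Npas2*, *Per1*, *Per2*, *Per3*, *Cry1*, *Cry2*, *Nr1d1* and *Nr1d2* were examined in liver RNA of high-fat diet (HFD)-fed mice. They were taken by name, and all 10 were found among the 45777 genes measured, with 65 annotated transcripts between them. The mice were C57BL/6 N (C57BL/6 in the sample titles), 7 weeks old at the start of an 18-week HFD. At week 13, 5 weeks before the end, they received either AAV-GFP, the control virus, or AAV-*Wee1-AS*, an adeno-associated virus that carries the long noncoding RNA *Wee1-AS* behind the CMV promoter in an AAV9 capsid, which is not specific to hepatocytes. HFD feeding and the injection of a virus were therefore common to both groups. Poly-A RNA of 1 library per group was sequenced, although 4 liver samples are mentioned in the submitters' design note. There is no replicate check of any difference, and whether RNA of several mice was pooled is not stated. The sex of the mice and the hour at which the livers were taken are not given in the sources used here. A difference in hour and a difference in treatment cannot be told apart with these libraries.

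The clock is a loop of transcription and repression that runs in nearly every cell. BMAL1, the product of *Arntl*, pairs with CLOCK or with its relative NPAS2 and binds E-box elements, where it activates the *Per*, *Cry* and *Nr1d* genes. The PER and CRY proteins accumulate, return to the nucleus and inhibit the pair. In a second loop, the nuclear receptors REV-ERBα (*Nr1d1*) and REV-ERBβ (*Nr1d2*) repress *Arntl*, *Npas2* and *Cry1* through ROR elements, which the activating ROR receptors also bind. In the liver, the clock sets daily rhythms in lipid, bile acid and glucose metabolism, and most core clock transcripts rise and fall over the day.

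Sequence around the starts of these genes is shown because the loop acts there. Whether these elements bear on any difference between the libraries was not tested. A window of 250 bases before to 50 bases after the transcript start was held by the RefSeq table (build GRCm38.p6) for 9 of the 10 genes, 13 windows in all. *Per2* had none. Both strands were searched for the E-box CACGTG, the related E′-box CACGTT, the D-box core TTATGTA, the ROR element core TAGGTCA and the cAMP response element core TGACGTC. None of these letter strings contains another, and each was found in 7.15%, 4.68%, 2.63%, 2.61% and 3.21% of all 32851 windows, respectively. A match to any of the 5 in any window was present for 6 of the 9 genes and for 20.9% of the 27025 genes in the table. The 250 bases before the start are printed 5′ to 3′ on the strand of the gene, with the matches in capitals. *Per1* (chr11:69098699-69098948, plus strand) has an E-box that begins 166 bases before the start. *Cry1* (chr10:85185055-85185304, minus strand) has an E-box 60 bases and an E′-box, read on the other strand, 79 bases before the start. *Per3* (chr4:151044666-151044915, minus strand) has a D-box core at 205 and another at 158 bases before the start. *Nr1d1* (chr11:98775378-98775627, minus strand) has an E′-box on the other strand 28 bases before the start, and *Nr1d2* (chr14:18239107-18239356, minus strand) has none of the 5 letter strings. For *Arntl*, the 25 bases around the ROR element core, which begins at base 31 of one annotated transcript (chr7:113207532-113207556, plus strand), are shown.
Per1: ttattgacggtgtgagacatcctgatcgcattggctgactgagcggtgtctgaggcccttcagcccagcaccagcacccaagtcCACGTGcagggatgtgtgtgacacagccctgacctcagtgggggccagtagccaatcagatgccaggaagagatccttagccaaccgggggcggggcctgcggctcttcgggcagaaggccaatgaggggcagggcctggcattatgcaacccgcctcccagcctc
Cry1: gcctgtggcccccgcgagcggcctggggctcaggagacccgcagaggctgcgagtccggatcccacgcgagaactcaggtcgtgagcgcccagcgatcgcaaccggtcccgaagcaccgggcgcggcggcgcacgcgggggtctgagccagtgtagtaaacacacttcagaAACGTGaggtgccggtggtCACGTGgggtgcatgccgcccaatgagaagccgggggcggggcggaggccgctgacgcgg
Per3: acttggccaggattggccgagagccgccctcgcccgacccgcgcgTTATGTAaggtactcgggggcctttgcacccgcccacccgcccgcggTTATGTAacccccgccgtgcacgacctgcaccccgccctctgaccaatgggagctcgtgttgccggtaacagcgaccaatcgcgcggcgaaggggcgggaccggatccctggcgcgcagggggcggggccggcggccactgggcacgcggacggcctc
Nr1d1: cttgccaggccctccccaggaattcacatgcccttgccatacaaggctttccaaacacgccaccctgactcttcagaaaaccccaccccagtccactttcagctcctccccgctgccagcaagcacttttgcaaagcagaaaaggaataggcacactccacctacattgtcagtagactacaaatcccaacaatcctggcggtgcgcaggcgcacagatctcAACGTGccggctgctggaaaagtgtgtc
Nr1d2: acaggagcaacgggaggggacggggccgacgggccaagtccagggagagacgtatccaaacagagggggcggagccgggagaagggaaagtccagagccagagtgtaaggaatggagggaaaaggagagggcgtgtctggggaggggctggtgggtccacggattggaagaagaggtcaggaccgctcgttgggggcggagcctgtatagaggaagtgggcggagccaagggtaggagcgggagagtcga
Arntl: ggcagaaagTAGGTCAgggacggag
A match marks letters and not a bound site. *Cry2* had an E′-box on the other strand 166 bases before its start, and a second *Per1* window had the cAMP response element core 132 bases before its start. The windows of *Clock* and *Npas2* held none of the 5 strings.

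The measure was an estimated read count per gene, scaled by the TMM method of edgeR, and each gene is given as a log2 ratio, AAV-*Wee1-AS* over AAV-GFP, with a prior count of 2. The libraries held 55466182 (AAV-GFP) and 48079335 (AAV-*Wee1-AS*) estimated counts. Of all genes, 15857 had at least 10 counts in at least 1 library, and all 10 clock genes were among them, *Npas2* through the AAV-GFP library alone. The values in parentheses after a ratio are its exact (Clopper-Pearson) 95% interval from the counts. The interval compares 2 libraries, not treatments, and covers counting error only, since copies made by PCR are not independent molecules.

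Most core clock transcripts were more abundant in the AAV-*Wee1-AS* library. The log2 ratio was above 0 for 7 of the 10 genes, as it was for 49.9% of all genes tested, and below 0 for *Npas2*, *Per1* and *Nr1d1*. No interval of the 10 reached 0, where 39.6% of all genes had intervals wholly above 0 and 37.4% wholly below. The ratio was above 2 for 4 genes, *Nr1d2*, *Clock*, *Cry1* and *Per3*, where 22.5% of all genes tested were above 2. *Per3* lay at that limit and was under 2-fold in 7 of the 12 alternatives, at 0.95 with library totals and between 0.03 and 0.96 in the other 6. It was below 0.5 for *Nr1d1* and *Npas2*, where 8.43% of all genes were below 0.5. The interval lay wholly past 2-fold for *Nr1d2* and *Clock* on the higher side (16.3% of all genes) and for *Nr1d1* and *Npas2* on the lower (3.61%). The median log2 ratio over the 10 genes was 0.83, and that of all genes was -0.00205. In liver tissue as a whole, fewer cells of a type and less RNA per cell cannot be told apart.

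**Figure D1:**
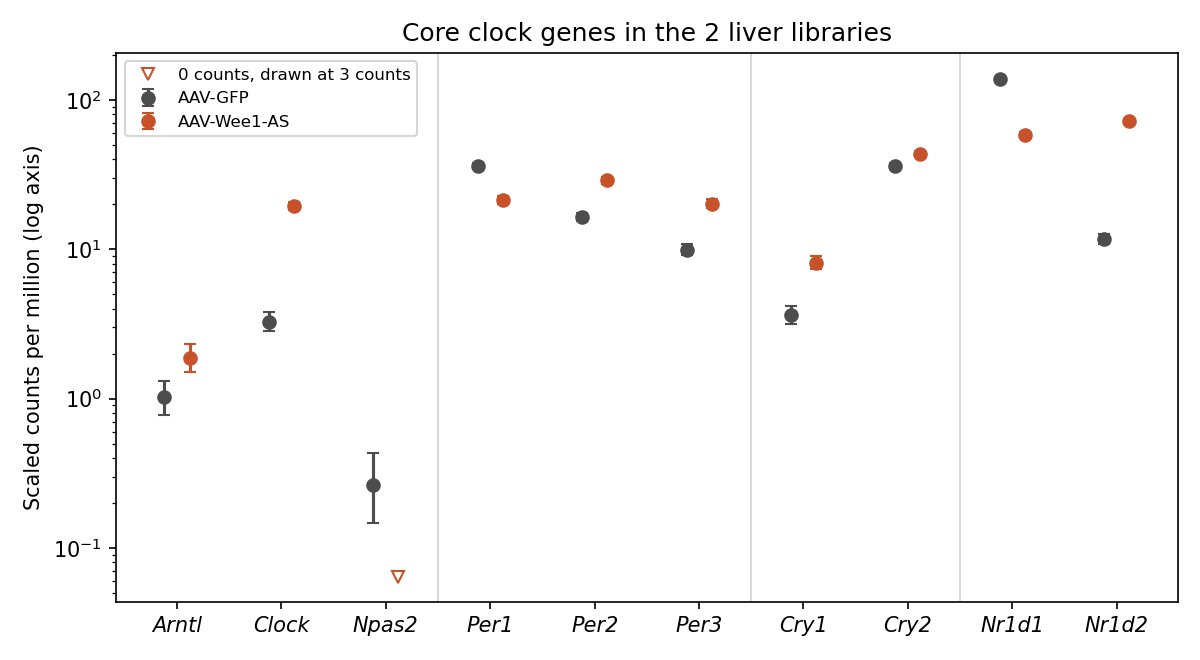
TMM-scaled counts (CPM, log axis) of the 10 core clock genes in the AAV-GFP (grey) and AAV-Wee1-AS (orange) libraries, 1 library each. Bars are exact 95% Poisson intervals of the count, and the open triangle marks Npas2 at 0 counts, drawn at the level of 3 counts. Nr1d1 is the most abundant gene with AAV-GFP, and Nr1d2 stands above it with AAV-Wee1-AS on this scale, which is not corrected for transcript length.

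Set per length of transcript, in TPM (transcript abundance scaled to the same sum in each library), the level of *Nr1d1* was the highest in both libraries and that of *Npas2* the lowest. With AAV-GFP, the order was *Nr1d1* (85.4 TPM), *Cry2* (15.8), *Per1* (13), *Per2* (4.90), *Nr1d2* (4.35), *Per3* (2.85), *Cry1* (2.07), *Arntl* (0.560), *Clock* (0.521) and *Npas2* (0.107). The neighbors *Per2* and *Nr1d2*, and *Arntl* and *Clock*, had Poisson intervals that overlapped, and the other neighbors did not. With AAV-*Wee1-AS*, *Nr1d2* (26.2 TPM) moved from the fifth place to the second behind *Nr1d1* (35.4), and *Clock* (3.25) stood above *Arntl* (1.04). *Cry2* (18.5), *Per2* (8.31), *Per1* (7.43), *Per3* (5.67) and *Cry1* (4.50) lay between them, and of these only the intervals of *Per2* and *Per1* overlapped with those of a neighbor.

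The activators differed between the libraries in both directions. *Clock* (chromosome 5, 76209868 to 76305603), the partner of BMAL1, had 186 counts with AAV-GFP and 914 with AAV-*Wee1-AS*. The log2 ratio was 2.56 (95% interval 2.35 to 2.81), a 5.90-fold higher level, and 377 of the 15857 genes had a higher ratio. It was 0.66, under 2-fold, with the GC and length trends described further on removed, and 1.06 with deposited FPKM values. *Arntl* (chromosome 7, 113178471 to 113314126), which encodes BMAL1 itself, had 58 and 88 counts and a log2 ratio of 0.86 (0.38 to 1.38), so that its interval spans 2-fold. *Npas2* (chromosome 1, 39193702 to 39363240), which can stand in for *Clock*, was detected with 15 counts with AAV-GFP and 0 with AAV-*Wee1-AS*. Taking 3 counts in that library as the floor, *Npas2* was at least 4.12-fold lower. That is a bound by the floor alone, and the counting interval of its log2 ratio had an upper end of -1.56, a smaller difference. The *Clock* to *Arntl* ratio in TPM was 0.930 with AAV-GFP and 3.12 with AAV-*Wee1-AS*. In counts, that ratio differed 3.23-fold between the libraries (exact 95% interval 2.20 to 4.74), a value that does not depend on the scaling of the libraries but does depend on which transcripts are counted. The difference was 1.11-fold with the trends removed. With curated RefSeq transcripts only, the fitted log2 ratio was 3.70 for *Arntl* and 8.25 for *Clock*, and with the most abundant transcript only it was 5.58 for *Arntl* and 4.43 for *Clock*, which turned their order. The 8.25 and the 5.58 were fitted against 0 counts with AAV-GFP and depend on the prior count.

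The REV-ERB paralogs differed in opposite directions. *Nr1d1* (chromosome 11, 98767932 to 98775377), which encodes REV-ERBα, had 7777 counts with AAV-GFP and 2733 with AAV-*Wee1-AS*, a log2 ratio of -1.23 (-1.29 to -1.17). *Nr1d2* (chromosome 14, 18204056 to 18239106), which encodes REV-ERBβ, had 666 and 3389 counts, a log2 ratio of 2.62 (2.51 to 2.75), and 345 genes had a higher one. The more abundant paralog was thus the lower one with AAV-*Wee1-AS*, and the scarcer one the higher. Per length, *Nr1d1* exceeded *Nr1d2* by 19.6-fold with AAV-GFP and by 1.35-fold with AAV-*Wee1-AS*. In counts, the *Nr1d2* to *Nr1d1* ratio differed 14.5-fold between the libraries (13.2 to 15.9). With the GC and length trends removed, that difference was 3.57-fold, *Nr1d1* was at -0.55, under 2-fold, and *Nr1d2* at 1.28. Each paralog has a single transcript in the table, so no sharing of counts between transcripts of a gene entered these values. The end of *Nr1d1* overlaps *Thra*, a thyroid hormone receptor gene on the opposite strand, by 1075 bases. *Thra* had 1388 and 574 counts and a log2 ratio of -0.99 (-1.14 to -0.85), lower like that of *Nr1d1*. The library kit preserves strand, but whether the counting used it is not given in the sources used here.

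The *Per* genes, whose products form the repressor complex with the cryptochromes, were split. *Per1* (chromosome 11, 69095108 to 69109965) had 2047 counts with AAV-GFP and 1004 with AAV-*Wee1-AS*, a log2 ratio of -0.75 (-0.86 to -0.64). *Per2* (chromosome 1, 91415977 to 91459351) had 937 and 1355, a log2 ratio of 0.81 (0.69 to 0.93). *Per3* (chromosome 4, 150997018 to 151044707), which is less required for rhythm than its paralogs, had 564 and 946 and a log2 ratio of 1.02 (0.87 to 1.18). *Per1* was therefore the lower one with AAV-*Wee1-AS* and both of its paralogs the higher. In TPM, *Per1* exceeded *Per2* by 2.65-fold with AAV-GFP and was 0.894 of it with AAV-*Wee1-AS*. With curated RefSeq transcripts only, the log2 ratio of *Per1* was -1.37 and that of *Per2* 1.15, both past 2-fold. In counts, the *Per2* to *Per1* ratio differed 2.95-fold between the libraries (2.63 to 3.30), the *Per3* to *Per1* ratio 3.42-fold (3.0 to 3.90), and the *Per3* to *Per2* ratio 1.16-fold (1.01 to 1.33).

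Both cryptochromes, the direct inhibitors of the CLOCK and BMAL1 pair, were higher with AAV-*Wee1-AS*, by different amounts. *Cry1* (chromosome 10, 85131700 to 85185054) had 206 and 381 counts, a log2 ratio of 1.16 (0.92 to 1.42), which was under 2-fold with deposited FPKM (0.67) or TPM values (0.84). *Cry2* (chromosome 2, 92403646 to 92434085) had 2060 and 2037, which at the smaller size of the AAV-*Wee1-AS* library gave a log2 ratio of 0.26 (0.17 to 0.35), the ratio nearest to 0 among the 10 genes. *Cry2* remained the more abundant per length, by 7.65-fold with AAV-GFP and 4.10-fold with AAV-*Wee1-AS*. In counts, the *Cry1* to *Cry2* ratio differed 1.87-fold between the libraries (1.56 to 2.25).

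**Figure D2:**
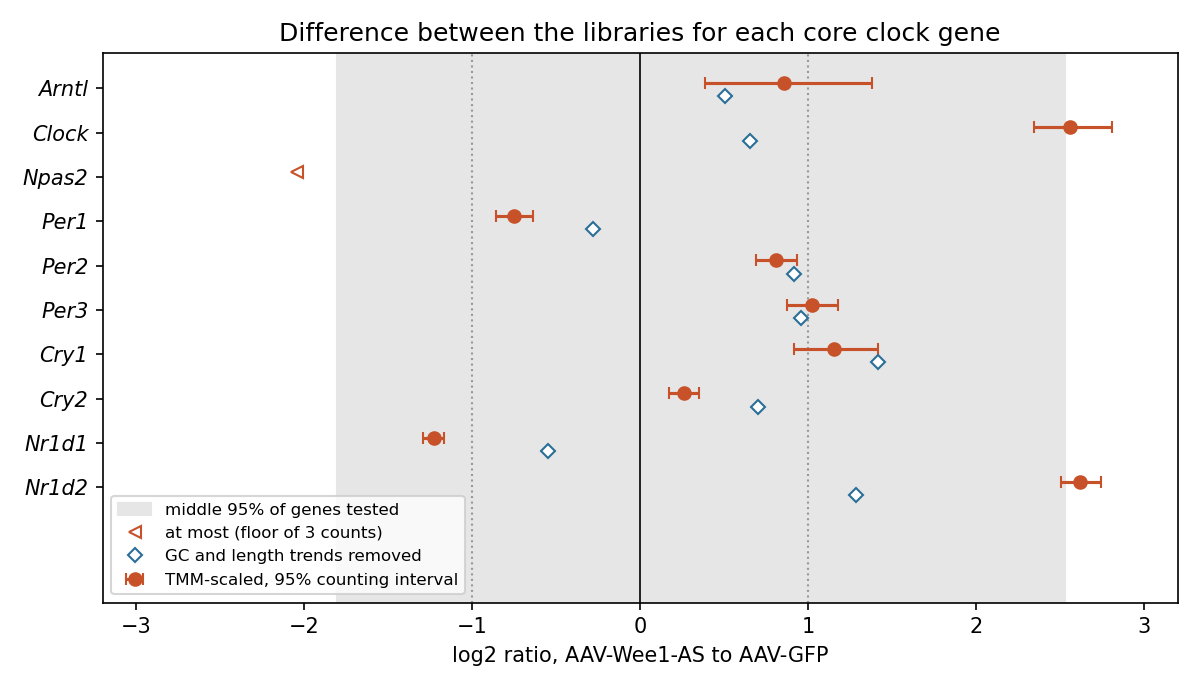
Log2 ratio (AAV-Wee1-AS over AAV-GFP) for each core clock gene, as filled circles with 95% counting intervals, and after removal of the GC and length trends, as open diamonds. The grey band holds the middle 95% of genes tested, dotted lines mark 2-fold, and the open triangle is the bound of Npas2. Clock and Nr1d2 lie near 2.6 and move furthest towards 0 when the trends are removed.

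The differences among the clock genes went along with the base composition of their transcripts. Over 14995 genes (94.6% of those tested) with a GC content, taken from the longest GENCODE transcript, the Spearman correlation of the log2 ratio with GC content was -0.67. Over the 10 clock genes it was -0.75, a description of 2 libraries in which all genes share depth and preparation. *Clock* (40.9% GC) and *Nr1d2* (41.8%) had the lowest GC content and the highest ratios. *Per1* (59.4%) and *Nr1d1* (56.8%) had the highest GC content and, *Npas2* (52.3%) aside, the lowest ratios. When lowess curves of the ratio of all genes on GC content and on length were subtracted, the log2 ratio of *Clock* was 0.66 and that of *Nr1d2* 1.28. *Cry1* then had the highest value of the 10, 1.42, followed by *Nr1d2*, *Per3* (0.96), *Per2* (0.91), *Cry2* (0.70), *Clock* and *Arntl* (0.50). *Nr1d1* was at -0.55, *Per1* at -0.28, and *Npas2* at most at -1.87 with its floor.

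All 10 genes kept their direction when the trends were removed, and the median over them was 0.68, against -0.000781 for all genes. The number past 2-fold became 2 on the higher side (*Cry1* and *Nr1d2*, 7.38% of all genes) and 1 on the lower (*Npas2*, 8.53%). Across all genes, 72.8% of those past 2-fold were on the higher side before removal and 46.4% after it. The *Nr1d2* to *Nr1d1* difference became 3.57-fold and the *Per2* to *Per1* difference 2.29-fold, while that of *Clock* to *Arntl* became 1.11-fold. The percentile of *Clock* among all genes went from 97.6 to 84.9, and that of *Cry1* from 80.6 to 96.8. Whether the trend arose in the preparation of the libraries or in the livers was not tested.

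**Figure D3:**
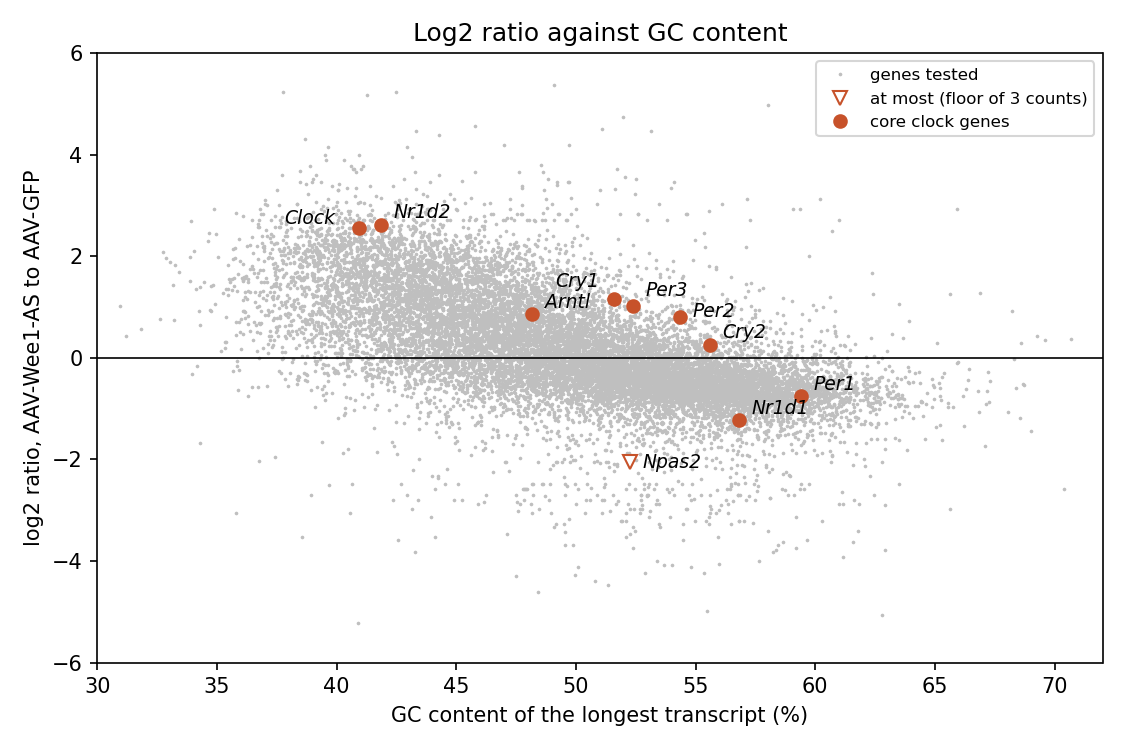
Log2 ratio (AAV-Wee1-AS over AAV-GFP) against the GC content (%) of the longest transcript, for 14995 genes (grey) and the 10 core clock genes (orange). The open triangle is the bound of Npas2, and 3 genes lie outside the axes. Clock and Nr1d2 sit at the low-GC, high-ratio end and Per1 and Nr1d1 at the other end of the cloud.

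The estimated counts were divided differently among the annotated transcripts of several genes. Of the 65 transcripts, 23 had counts with AAV-GFP, 27 with AAV-*Wee1-AS* and 15 with both. For *Clock*, XM_030254101 held 164 of 186 counts (88.2%) with AAV-GFP and 4 of 914 (0.438%) with AAV-*Wee1-AS*. NM_001289826 (384 counts) and XM_017320649 (368) held most of the rest with AAV-*Wee1-AS*, where they had 0 and 19 with AAV-GFP. The 3 curated *Clock* transcripts together had 0 and 541 counts. For *Arntl*, the noncoding model XR_003946377 held 50 of 58 counts with AAV-GFP, and the mRNA NM_001357070 held 84 of 88 with AAV-*Wee1-AS*. The counts are shares assigned by the quantification and not reads unique to a transcript.

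For *Per3*, NM_011067 had 558 counts with AAV-GFP and 463 with AAV-*Wee1-AS*, and the higher total with AAV-*Wee1-AS* came from NM_001289877 (0 and 172 counts), NM_001289878 (0 and 171) and XM_011250203 (6 and 130). With the most abundant transcript of each gene alone, the log2 ratio of *Per3* was 0.03. For *Per1*, XM_006532480 held 79.5% and 85.1% of the counts. It starts 3841 bases before NM_011065, whose start the E-box sequence above precedes and which held 18.1% and 12.8%. For *Per2*, NM_011066 held 80.6% and 99.7%. *Cry1*, *Cry2*, *Nr1d1* and *Nr1d2* had at least 97.4% of their counts on a single transcript in both libraries.

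**Figure D4:**
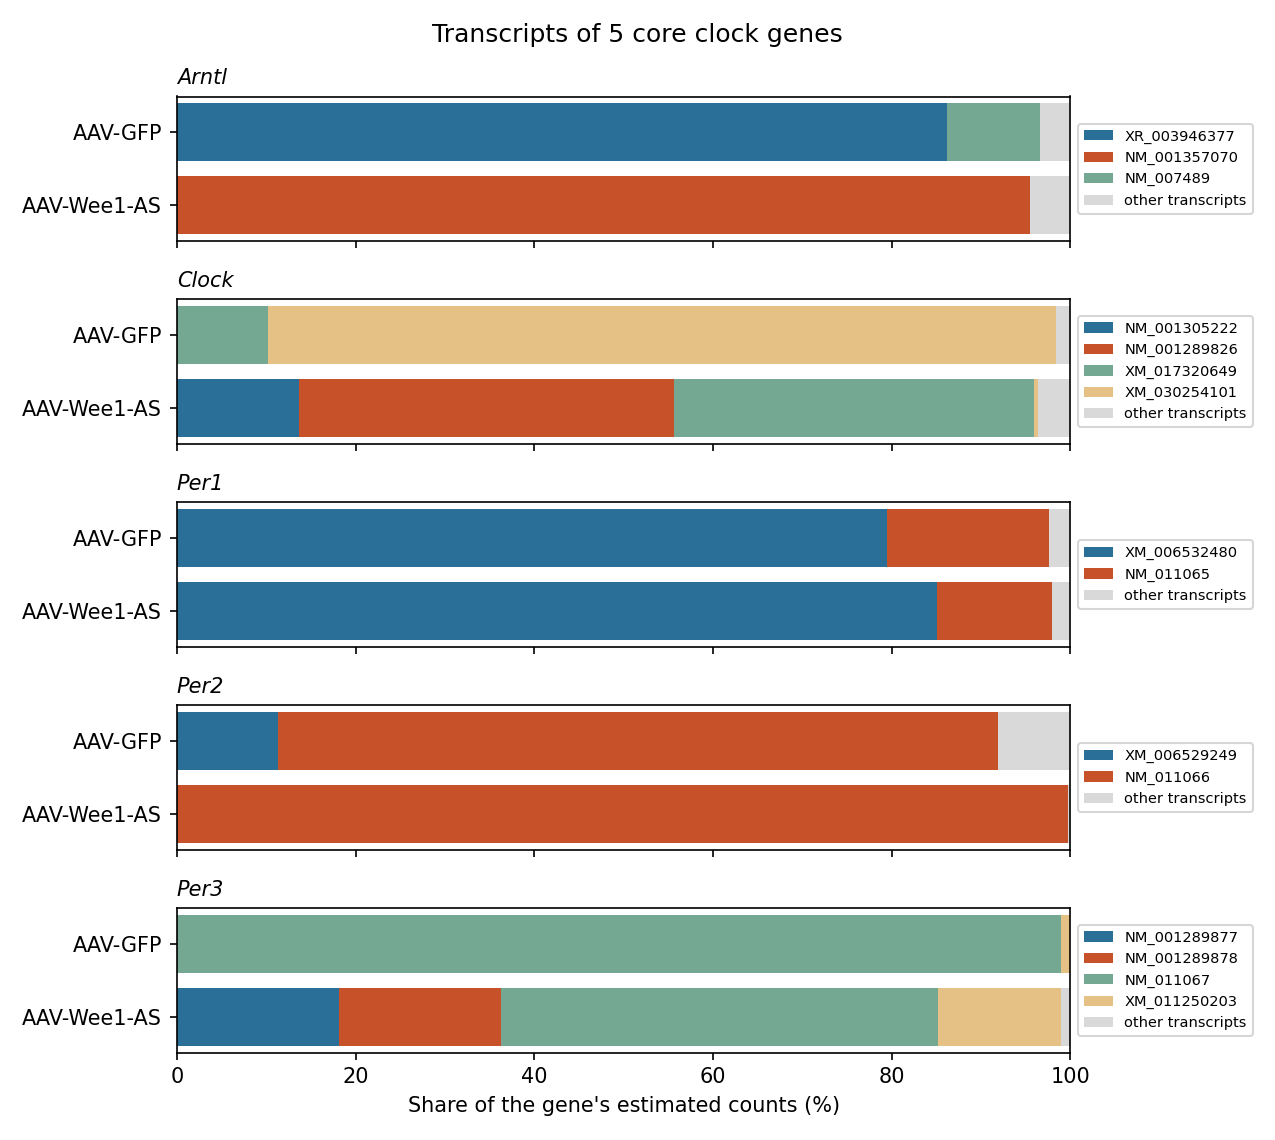
Share (%) of the estimated counts of Arntl, Clock, Per1, Per2 and Per3 on each annotated transcript with at least 10% in a library, for AAV-GFP (upper bar) and AAV-Wee1-AS (lower bar), with all other transcripts in grey. The leading transcript differs between the libraries for Arntl and Clock and is the same for Per1, Per2 and Per3.

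The clock genes peak at different hours in mouse liver, and they were set side by side by phase. Of 5 genes with a peak from night to dawn, *Arntl*, *Clock*, *Cry1* and the repressor *Nfil3* were higher with AAV-*Wee1-AS* and *Npas2* was lower, with a median log2 ratio of 0.86. The share of all genes above 0 was 49.9%. Of 11 genes with a peak from day to dusk, 5 had a log2 ratio above 0 and 6 below, with a median of -0.06. The intervals of 3 of these 11, *Ciart*, *Bhlhe41* and *Usp2*, reached 0. With the trends removed, 4 of 5 and 7 of 11 were above 0, where 50% of all genes were, and the medians were 0.66 and 0.25. On the TMM scale, *Nr1d1*, *Per1* and *Dbp*, which peak by day or at dusk, were lower. *Nr1d2*, *Per2*, *Per3*, *Hlf* and *Tef*, which belong to the same list, were higher. With the trends removed, *Dbp* turned to 0.25 and *Hlf* to -0.33.

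Outside the 10 core genes, 44 further clock genes in 5 lists were examined, of which 43 passed the count filter. The ratio was above 2 for 16 of them and below 0.5 for 1 (*Alas1*), beside 22.5% and 8.43% of all genes. With the trends removed, the numbers were 6 and 1, beside 7.38% and 8.53% of all genes. In the auxiliary loop, *Rora*, the receptor that opposes the REV-ERBs, had 358 and 1851 counts and a log2 ratio of 2.64 (2.48 to 2.82), 0.69 with the trends removed. On the TMM scale, *Rora* was the only one of the 8 genes tested there past 2-fold, and *Rorb* had 0 counts in both libraries. *Timeless*, at 0.42 (0.15 to 0.70), was at 7.04 with curated transcripts and at -6.27 with the most abundant transcript only. *Bhlhe40*, an E-box repressor, was at -0.14 (-0.19 to -0.09). *Nfil3*, which represses D-box genes, was at 0.35 (0.22 to 0.48).

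The PAR bZIP factors, which activate D-box genes such as *Per3*, were under 2-fold on the TMM scale. *Dbp* had 8019 and 4429 counts, a log2 ratio of -0.58 (-0.63 to -0.53) that became 0.25 with the trends removed. *Hlf* was at 0.68 (0.60 to 0.76), which became -0.33 with the trends removed and was past 2-fold with curated transcripts (1.54) or the most abundant transcript only (1.53). *Tef* was at 0.12 (0.08 to 0.16), which became 0.35 with the trends removed, -0.01 with the upper quartile and -0.62 with the most abundant transcript only. The direction of each of the 3 factors therefore turned under at least 1 alternative.

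Of 10 genes of kinases, ubiquitin ligases and a deubiquitinase (*Usp2*) that act on clock proteins, 5 were past 2-fold higher and none was past 2-fold lower (22.5% and 8.43% of all genes). The casein kinases *Csnk1d* at -0.19 (-0.26 to -0.12) and *Csnk1e* at -0.47 (-0.73 to -0.21), which phosphorylate PER, became 0.20 and 0.13 with the trends removed. *Csnk1e* was at 0.36 with curated transcripts and at 1.11, past 2-fold higher, with the most abundant transcript only. With the trends removed none of the 10 was past 2-fold higher and 1 was past 2-fold lower (7.38% and 8.53% of all genes), the ligase gene *Btrc*, which went from -0.05 (-0.19 to 0.09) to -1.51 and was at 0.24 with curated transcripts. *Gsk3b*, at 1.01 (0.89 to 1.13), became -0.14 with the trends removed and was under 2-fold with library totals (0.94) and the upper quartile (0.88), and *Csnk1a1*, at 1.22 (1.14 to 1.30), was -0.17 with its most abundant transcript alone. Of 10 chromatin cofactors, 6 were past 2-fold higher and none was past 2-fold lower (22.5% and 8.43% of all genes). With the trends removed 1 of the 10 was past 2-fold higher and none lower (7.38% and 8.53%), the acetyltransferase gene *Kat2b*, which went from 1.78 (1.67 to 1.89) to 1.11. *Ncor1*, the corepressor that REV-ERBs recruit, was at 1.44 with curated transcripts and 4.22 with the most abundant transcript only. Its log2 ratio was 1.68 (1.59 to 1.77) on the TMM scale and 0.83 with the trends removed. *Hdac3*, the deacetylase in the same complex, was at -0.26 (-0.35 to -0.17) and -0.70.

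Of 12 output genes of the liver clock, 4 were past 2-fold higher and 1 lower (22.5% and 8.43% of all genes). With the trends removed, 5 were past 2-fold higher and none lower (7.38% and 8.53%). *Por*, the electron donor of the cytochromes P450, went from 0.51 (0.49 to 0.54) to 1.23, and *Ppara*, a fatty acid receptor, from 0.82 (0.79 to 0.85) to 1.00, while *Nampt* and *Alas1* were then under 2-fold. *Lonrf3* had 36 and 312 counts and a log2 ratio of 3.32 (2.89 to 3.93), 3.60 with the trends removed and 0.70 with FPKM values and a pseudocount of 1. *Upp2*, a uridine phosphorylase gene, had 4822 and 19384 counts and a log2 ratio of 2.28 (2.24 to 2.33), 2.02 with the trends removed. *Cyp7a1*, the rate-limiting enzyme of bile acid synthesis and a gene that REV-ERBα acts on, was at 2.55 (2.42 to 2.70) and 1.16. *Nampt*, the rate-limiting enzyme of NAD salvage, was at 2.16 (2.05 to 2.27) and 0.73. *Alas1*, the first enzyme of heme synthesis, had 61181 and 23535 counts, -1.10 (-1.12 to -1.08) and -0.72. Heme is the ligand of both REV-ERBs. *Wee1*, a kinase gene with E-boxes in its promoter and the locus of *Wee1-AS*, had 635 and 1039 counts and a log2 ratio of 0.99 (0.84 to 1.13), 0.96 with the trends removed, 1.02 with curated transcripts and 1.28 with the most abundant transcript only. *Wee1-AS* lies on the opposite strand over the start of *Wee1*, so that, unless the counting used strand, reads of the virus-borne RNA and of *Wee1* cannot be told apart in this value.

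**Figure D5:**
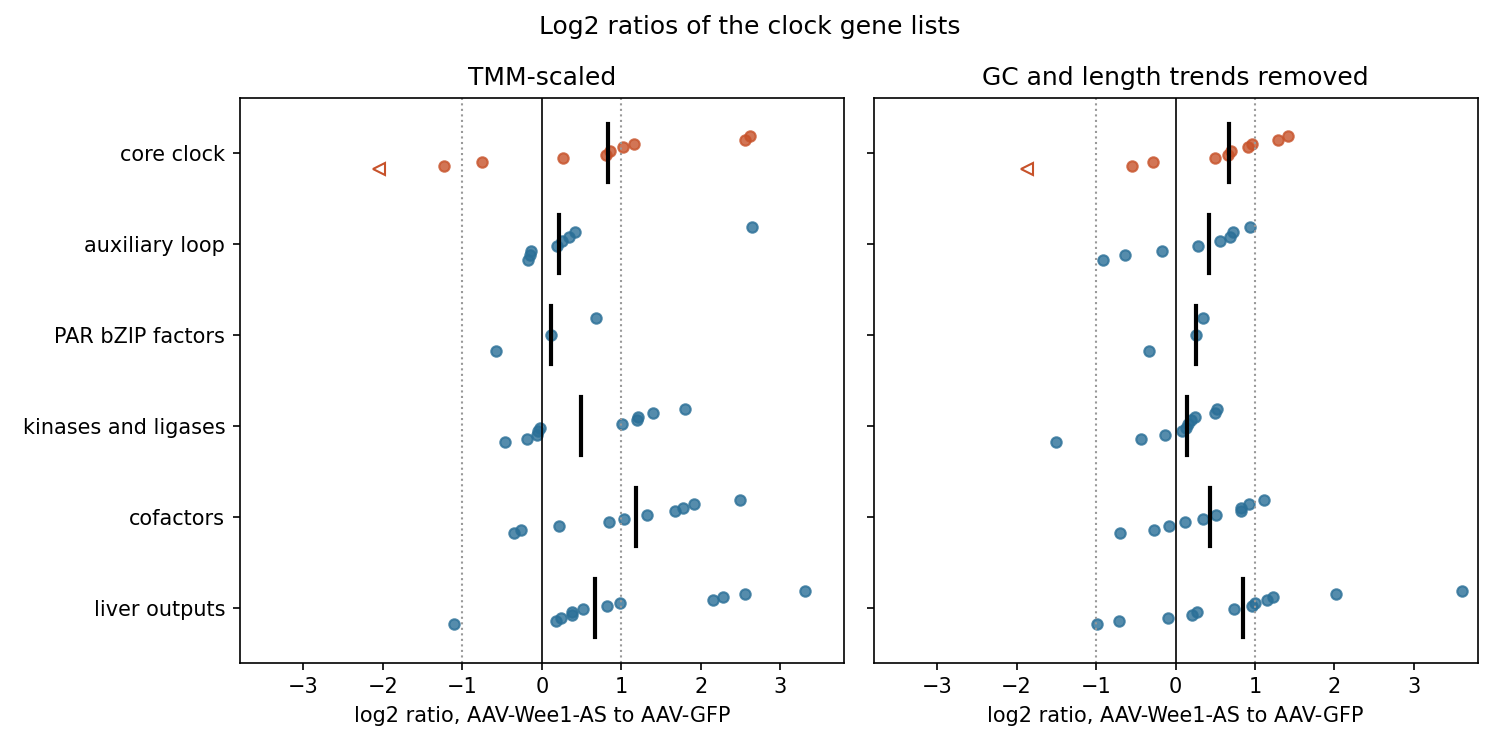
Log2 ratio (AAV-Wee1-AS over AAV-GFP) of every tested gene in the core clock (orange) and 5 further clock lists (blue), TMM-scaled on the left and with the GC and length trends removed on the right. Vertical bars are list medians, dotted lines mark 2-fold, and the open triangle is the bound of Npas2. The cofactor median goes from 1.18 to 0.43, and that of the core clock from 0.83 to 0.68.

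The tissue label was checked against markers. The 5 hepatocyte markers found of 6 summed to 76173 TPM with AAV-GFP and 85171 with AAV-*Wee1-AS*. *Alb* (37459 and 53289 TPM) carried the higher sum, *Apoa1*, at -0.25 (-0.25 to -0.24), and *Ttr*, at -0.61 (-0.62 to -0.60), were lower, and *Cps1*, at 1.22 (1.21 to 1.24), was past 2-fold higher. With the GC and length trends removed, *Cps1* was at 0.43, under 2-fold, *Apoa1* at 0.48 and *Ttr* at -0.97. The summed level of 6 Kupffer cell markers was 333.0 and 270.1 TPM. *Cd5l* (208.0 and 120.9 TPM) was the largest part of the Kupffer cell sum in both libraries. *Vsig4*, *Timd4* and *Marco* of that list were past 2-fold higher (22.5% of all genes), 4 of its 6 intervals lay above 0 (39.6%), and its median log2 ratio was 0.76. With the trends removed, only *Marco* (2.22) was past 2-fold higher (7.38% of all genes). *Vsig4* was then at 0.89 and *Timd4* at 0.73, and the median was 0.48. The summed level of 5 stellate cell markers was 108.4 and 114.4 TPM, most of it *Dcn* (74.2 and 92.0). *Col1a1* of that list was past 2-fold lower, with a log2 ratio of -2.30 (-2.43 to -2.18), and *Lrat* past 2-fold higher, with 1.48 (1.28 to 1.70). With the trends removed, *Col1a1* was at -2.01 and *Lrat* at 0.05, under 2-fold. *Dcn* went from 0.35 (0.29 to 0.41) to -1.18. The sum was 126.5 and 104.0 TPM for 5 endothelial markers, most of it *Clec4g* (78.8 and 54.7), while *Kdr* was higher at 0.56 (0.48 to 0.64) and the interval of *Pecam1*, at 0.05 (-0.06 to 0.16), held 0. It was 44.1 and 37.9 for 5 cholangiocyte markers, most of it *Spp1* (40.4 and 34.3). *Sox9* was higher at 0.81 (0.44 to 1.21), *Krt19* lower at -0.66 (-1.30 to -0.09), and the intervals of *Krt7* and *Epcam* held 0. With the trends removed, 4 of the 5 were above 0 and *Spp1* was at -1.02. For 5 lymphocyte markers the sum was 5.74 and 4.80 TPM. Of these, *Ptprc* was past 2-fold higher at 1.14 (0.87 to 1.45) and *Nkg7* past 2-fold lower at -1.01 (-1.90 to -0.30). With the trends removed, *Ptprc* was at -0.48 and *Nkg7* at -0.49. The sum was 10.6 and 5.37 for 3 neutrophil markers, of which *Ly6g* had 0 counts in both libraries, and 2037 and 1100 for 3 erythroid markers. *S100a9* was at -1.29 (-1.90 to -0.79), and the interval of *S100a8*, at -0.40, held 0. With the trends removed they were at -1.72 and -0.94. The erythroid *Hba-a1*, *Hbb-bs* and *Alas2* were at -0.88, -0.92 and -0.35, and at -0.07, -0.54 and 0.14 with the trends removed. The part of these cells in the clock gene values was not tested.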

How the data were processed

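Livers of HFD-fed mice with AAV-GFP or with AAV-*Wee1-AS* were compared by sequencing of poly-A RNA, with 1 library per group. The table deposited by the authors holds, for 129299 RefSeq transcripts on mm10, an estimated count of reads (not normalized), a FPKM value (scaled by transcript length and library size) and a TPM value (scaled by length to an equal sum), together with the transcript length. The submitters' processing notes name Trimmomatic 0.38, HISAT2 2.1.0, SAMtools 1.9 and StringTie 2.1.3b. Whether strand was used in counting is not given in the sources used here.

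Estimated counts were summed per gene symbol and scaled by the TMM method (edgeR 4.0.16, R 4.3.3) over genes that reached 10 counts in 1 library or both. Factors were 1.03 (AAV-GFP) and 0.975 (AAV-*Wee1-AS*). Log2 ratios used a prior count of 2, and 2-fold was the limit for counts of genes. Intervals were exact at 95%. A library at or under 3 counts was a floor. No p-value was computed. The Mann-Whitney test named in the study's methods needs replicates. Within-library ratios of gene pairs were compared by the exact conditional odds ratio. Trends with GC content and log2 length of the longest GENCODE M21 transcript of the same symbol were removed by lowess fits (span 0.3, 5 cycles, statsmodels 0.14.6, Python 3.11.15, scipy 1.17.1). Scripts were tested on simulated data. All 10 core genes, and genes of the written lists (auxiliary loop, PAR bZIP factors, kinases and ligases, cofactors, liver outputs, phases, glucocorticoid-induced genes, cell type markers), could be named, and some listed genes are not reported here. The members and lists were chosen with earlier results of these data known. Transcripts were named where they held at least 10% of a gene's counts. The 12 alternatives were the size factors of DESeq2 1.42.0, the upper quartile, library totals, TMM without the 20 most abundant genes, no filter, at least 10 counts in both libraries, a prior count of 0.5, deposited FPKM or TPM with a pseudocount of 1, removal of the trends, curated RefSeq transcripts only, and the most abundant transcript only.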

Additional observations from a re-analysis of the deposited data

How the results depend on the processing

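Each of the 10 clock genes kept its direction under every one of the 12 alternatives that gave it a value. *Npas2* has none where at least 10 counts were asked for in both libraries. That filter and the lack of a filter leave each ratio as it was, so neither could turn a direction. The size factors of DESeq2 and TMM without the 20 most abundant genes shifted the median of all genes by only 0.000449 and -0.00126. Scaling by the upper quartile lowered the median of all genes by 0.13 and left 3 clock genes past 2-fold on the higher side, without *Per3* (0.89), as did library totals (0.95). Of 15857 genes, 3169 were past 2-fold higher and 1759 lower with the upper quartile, and 3356 and 1547 with library totals. With the deposited FPKM values, 2 clock genes were past 2-fold higher and 1 lower, with a median of 0.40, among 1029 and 307 of 15857 genes. With TPM values the numbers were 2 and 1, a median of 0.52, and 1608 and 438 of 15857 genes. A pseudocount of 1 is large beside the levels of *Npas2*, *Clock* and *Arntl*, and *Npas2* was at -0.08 with FPKM values. With the trends removed the numbers were 2 and 1, with a median of 0.68, among 1107 and 1279 of 14995 genes. At least 10 counts in both libraries left 1 clock gene past 2-fold lower, since *Npas2* was not tested, among 843 of 14412 genes. No filter left 2064 of 20282 genes past 2-fold lower. With curated RefSeq transcripts only, 5 clock genes were past 2-fold higher and 3 lower, among 2955 and 1397 of 12847 genes, and with the most abundant transcript only 5 and 2, among 3818 and 1969 of 15782. The fitted log2 ratio of *Arntl* (0.86) was then 3.70 and 5.58, and that of *Clock* (2.56) was 8.25 and 4.43. Among the 60 clock, phase and glucocorticoid list genes, 3 of 717 values were of opposite sign to a ratio past 2-fold: *Gsk3b* (-0.14) and *Ppargc1a* (-0.27) with the trends removed, and *Csnk1a1* (-0.17) with its most abundant transcript alone. The cause was not tested. Changes of sign in genes under 2-fold, such as *Dbp*, *Hlf* and *Tef*, are not in that count. A further 232 of the 717 values lay outside the counting interval of the TMM-scaled ratio. No paired analysis was possible because each group has 1 library, and for the same reason no library could be left out. Depth limits *Npas2* and *Arntl*, which had under 100 counts in each library.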

Other observations

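Glucocorticoids reset the liver clock and induce *Per1*, so 7 other genes that they induce in liver were measured beside it. Their median log2 ratio was -0.40, with 5 below 0 and 2 above, where 49.9% of all genes were above 0. *Fkbp5*, a chaperone of the glucocorticoid receptor, had 1441 and 3538 counts and a log2 ratio of 1.57 (1.48 to 1.66), the only one past 2-fold (22.5% of all genes were past it upwards, 8.43% downwards), and 1.70 with the GC and length trends removed. *Dusp1* at -0.63 (-0.74 to -0.53), *Tat* at -0.49 (-0.51 to -0.47), *Zbtb16* at -0.45 (-0.57 to -0.33), *Tsc22d3* at -0.40 (-0.49 to -0.32) and *Sgk1* at -0.32 (-0.49 to -0.15) were lower with AAV-*Wee1-AS*, as *Per1* was, and stayed below 0 with the trends removed. With the most abundant transcript only, *Sgk1* was at 0.05 and *Zbtb16* at -1.74. *Pck1*, a gluconeogenic enzyme gene, was at 0.19 (0.17 to 0.20), and at 0.63 with the trends removed. *Dusp1* was then at -0.12, *Zbtb16* at -0.32, *Tat* at -0.45, *Sgk1* at -0.47 and *Tsc22d3* at -0.56, with *Per1* at -0.28. Whether glucocorticoids had a part in any of these values was not tested.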
